A study of Homo sapiens with 4 samples.

Results

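The clustered histone genes are the histone genes that sit in the HIST1, HIST2, HIST3 and HIST4 clusters of the human genome. They were taken as every gene whose symbol in the deposited tables starts with HIST, a cluster number, H and a class number, which gave 71 of 23444 genes. HIST1 on chromosome 6 holds 55 of them, HIST2 on chromosome 1 holds 12, HIST3 on chromosome 1 holds 3 and HIST4 on chromosome 12 holds 1. By class they are 6 linker histone H1 genes, 17 H2A genes, 18 H2B genes, 15 H3 genes and 15 H4 genes, and all 71 are protein-coding in GENCODE release 29 on hg38. The 4 libraries came from total RNA of U87-MG, a human glioblastoma line long established in culture: 2 carried a control hairpin RNA (shCON) and 2 a hairpin RNA against MAGED2 (shMAGED2). The series design calls the MAGED2 knockdown stable, whereas the treatment protocol in the labels names lentiviral GIPZ hairpin vectors against ZDHHC15 and a scrambled hairpin, transiently transfected and harvested after 36 h. The deposited files do not settle which applies, beyond 0 counts for ZDHHC15 in all 4 libraries. Nothing says that the 2 libraries of a group came from separate cultures, so the spread behind the p-values is that of these libraries alone and may be technical. The sources used here give neither the promoter that drove the hairpins, nor the number of hairpins or clones, nor any poly(A) selection.

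Histone genes of the clusters supply the bulk of the core histones H2A, H2B, H3 and H4, which form the nucleosome, and of the linker histone H1, which binds the DNA between nucleosomes. Most of their mRNAs have no intron and no poly(A) tail. They end just past a conserved stem-loop, which is bound by SLBP (stem-loop binding protein) and cut with the U7 small nuclear ribonucleoprotein, and they are made mainly in S phase, when DNA is copied. Some clustered genes also give polyadenylated mRNA, and library preparation that selects poly(A) tails reads mainly those.

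MAGED2 had 6090 and 5225 counts in shCON replicates 1 and 2 and 526 and 795 counts in shMAGED2 replicates 1 and 2. Its log2 change was −3.16 (SE 0.13, adjusted p = 0.000654 by edgeR's quasi-likelihood test with Benjamini-Hochberg adjustment over 15293 genes, as for every adjusted p below unless another tool is named), in the direction of its labels. Total counts ran from 28673774 to 36234336 per library, so that 0 counts allow at most 0.0817 to 0.102 CPM (counts per library total, with the total multiplied by edgeR's TMM factor; the limit is 3 counts and covers counting error only). Mitochondrially encoded genes held 10.08% of the counts in shMAGED2 replicate 1 and 3.904% to 4.875% in the other 3 libraries. Of the markers of the line, VIM, CD44, EGFR and CHI3L1 were abundant in all libraries, whereas GFAP stayed at or below 3.03 CPM and SOX2 at or below 4 counts. Of 8 tested markers of the line, NES rose (log2 change 1.88, adjusted p = 0.002), and OLIG2 (−1.45, adjusted p = 0.0158) and CHI3L1 (−0.45, adjusted p = 0.0447) fell. The summed level of 10 markers of other cell types was 460 to 466 CPM in shCON and 384 to 607 CPM in shMAGED2. CD68, which many tumour cells also express, held nearly all of it, and AIF1 was at 0 counts.

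Of the 71 genes, 29 passed the filter on low counts and were tested, and 42 did not. Among the 29, 6 rose in shMAGED2, which is 20.7% of them beside 12.3% of all 15293 tested genes. None fell, beside 11.6% of all tested genes. At an unadjusted p under 0.05, 8 of the 29 were higher and 2 lower, beside 5806 of all 15293 tested genes in either direction. The median log2 change of the 29 was 0.63, with 25 positive and 4 negative values, beside a median of 0.003 with 7689 positive and 7604 negative values over all tested genes. The CPM of both shMAGED2 libraries lay above both shCON libraries for 16 of the 29 (55.2%; 33% of all tested genes) and below both for 2 (6.9%; 33% of all tested genes). Those 2 are the neighbours HIST3H2A and HIST3H2BB. Of the 6 that rose, 2 cannot be counted apart, as given below. HIST2H2AC and HIST1H3E, also among the 6, and HIST1H2BJ and HIST1H2AE reached the filter's 0.306 CPM in the shMAGED2 libraries only, so that these 4 of the 29 could be tested only because they are high there. No gene of the 29 passed through shCON alone, and the counts and the median over the 29 are therefore a description only. With a filter of at least 1 CPM in 2 libraries, 14 clustered histone genes were tested and 4 rose, beside 14% of all genes tested there. HIST3H2BB fell, beside 13.8%, and had reached that filter in the shCON libraries only.

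**Figure D1:**
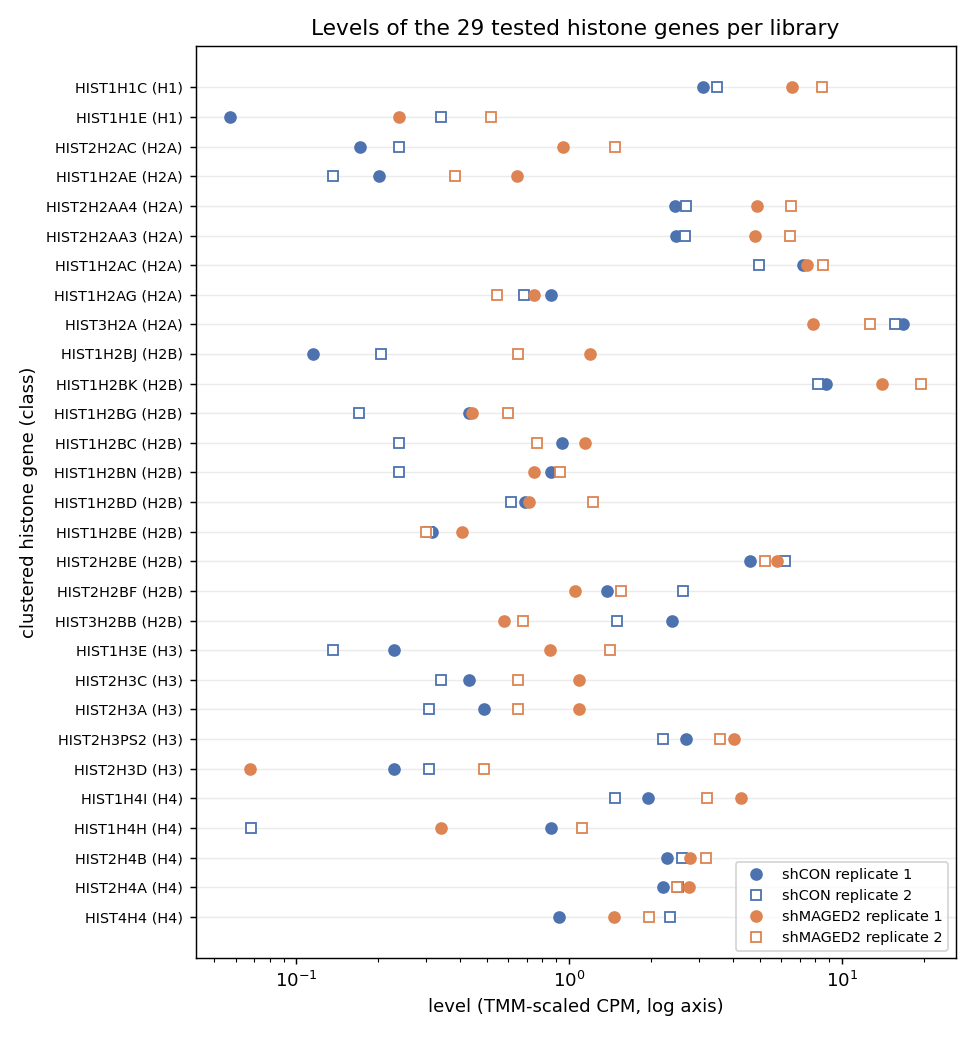
Level of each of the 29 tested clustered histone genes in each library, in TMM-scaled CPM on a log axis, grouped by histone class. Filled and open symbols are replicates 1 and 2. For HIST2H2AC, HIST1H3E and HIST1H2BJ the shMAGED2 libraries lie far to the right of the shCON libraries, and for HIST3H2A and HIST3H2BB they lie to the left.

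Summed over all 71 genes, the level was 68.27 and 65.06 CPM in shCON replicates 1 and 2 and 82.92 and 101.3 CPM in shMAGED2 replicates 1 and 2. The shMAGED2 mean of 92.1 ± 13 CPM (SD, n = 2) was 1.38 times the shCON mean of 66.7 ± 2.27 CPM (SD, n = 2). Both shMAGED2 libraries lay above both shCON libraries, and shMAGED2 replicate 2 was the highest. In FPKM, the authors' deposited values relative to gene length and depth, the sum was 83.74 and 79.91 for shCON and 106 and 146.1 for shMAGED2. Per length, HIST1H2BK had the highest mean over the 4 libraries at 31.7 FPKM, and the median over the 29 tested genes was 1.05 FPKM. These sums were not tested, and in bulk RNA more cells in S phase and more histone mRNA per cell cannot be told apart.

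The linker histone genes were led by HIST1H1C, which encodes histone H1.2, a linker histone that many non-dividing cells also make. HIST1H1C (ENSG00000187837, chr6:26055787-26056428, minus strand) had 108 and 102 counts in shCON and 194 and 312 in shMAGED2. That is 3.09 and 3.48 CPM against 6.58 and 8.49 CPM, with no overlap between the groups. The log2 change was 1.20 (SE 0.25, adjusted p = 0.0205), the smallest adjusted p among the clustered histone genes. HIST1H1E, which encodes H1.4, had 2 and 10 counts in shCON and 7 and 19 in shMAGED2, so that the groups overlapped (log2 change 0.96, SE 1.04, adjusted p = 0.546). The summed H1 level was 3.18 and 3.954 CPM in shCON and 7.094 and 9.719 CPM in shMAGED2, 2.36 times higher by the means. Outside the clusters, H1F0, the replacement linker histone H1.0, fell by 0.99 on the log2 scale (SE 0.14, adjusted p = 0.00646). Per length the summed level of H1F0 and H1FX was 65.93 and 66.46 FPKM in shCON and 39 and 57.98 FPKM in shMAGED2, whereas the clustered H1 genes gave 4.789 and 5.901 FPKM in shCON and 9.97 and 14.57 FPKM in shMAGED2. Most H1 mRNA measured per length thus came from outside the clusters in all 4 libraries. Poly(A) selection, which is not given for these libraries, would affect this ratio, and that was not tested.

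The H2A genes held 3 of the 6 that rose. HIST2H2AA3 (ENSG00000203812, chr1:149842188-149842736, minus strand) had 86 and 78 counts in shCON and 141 and 237 in shMAGED2, a log2 change of 1.13 (SE 0.27, adjusted p = 0.0331). HIST2H2AA4 (ENSG00000272196, chr1:149851061-149851624, plus strand) had 85 and 79 counts in shCON and 144 and 239 in shMAGED2, a log2 change of 1.15 (SE 0.27, adjusted p = 0.0312). The 2 genes are copies of each other: of the 75-base stretches of the HIST2H2AA3 transcript, 100% also occur in HIST2H2AA4, and their near-equal counts are one signal that cannot be assigned to either. With the 3 near-identical gene pairs of HIST2 each summed before the fit, 26 clustered histone genes were tested and 5 rose, beside 12.2% of all genes tested there. HIST2H2AC (ENSG00000184260, chr1:149886975-149887364, plus strand), which encodes an H2A of type 2, had 6 and 7 counts in shCON and 28 and 54 in shMAGED2, 0.172 and 0.239 CPM against 0.95 and 1.47 CPM. Its log2 change of 2.55 (SE 0.63, adjusted p = 0.0351) rests on few counts, and 23.7% of its 75-base stretches occur in HIST2H2AA3 too.

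Of the other H2A genes, HIST1H2AE had 7 and 4 counts in shCON and 19 and 14 in shMAGED2, with no overlap and a log2 change of 1.57 that missed the threshold (SE 0.79, adjusted p = 0.205). HIST1H2AC was at 251 and 146 counts in shCON and 220 and 314 in shMAGED2 (log2 change 0.39, SE 0.25, adjusted p = 0.305), and HIST1H2AG at 30 and 20 against 22 and 20 (log2 change −0.26, SE 0.56, adjusted p = 0.771). HIST3H2A (ENSG00000181218, chr1:228456979-228457873, minus strand), with the most counts of all 71 genes, had 587 and 457 counts in shCON and 232 and 468 in shMAGED2. That is 16.8 and 15.6 CPM against 7.87 and 12.7 CPM, lower in both shMAGED2 libraries, with a log2 change of −0.65 (SE 0.25, adjusted p = 0.117). The summed H2A level was 30.88 and 27.4 CPM in shCON and 28.17 and 38.11 CPM in shMAGED2, so that the groups overlapped. Without HIST3H2A, the only HIST3 gene of the class, the log2 ratio of the class means went from 0.19 to 0.82.

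The H2B genes had 1 member that rose, HIST1H2BK (ENSG00000197903, chr6:27146418-27146798, minus strand), which is among the clustered genes known to give polyadenylated mRNA. It had 305 and 239 counts in shCON and 413 and 715 in shMAGED2, 8.74 and 8.15 CPM against 14 and 19.5 CPM. All counts of shMAGED2 lay above those of shCON, and the log2 change was 0.99 (SE 0.21, adjusted p = 0.0234). H2BFS, whose transcript shares 42.3% of the 75-base stretches of HIST1H2BK, had 0 and 2 counts in shCON and 2 and 2 in shMAGED2. HIST1H2BJ had 4 and 6 counts in shCON and 35 and 24 in shMAGED2, a log2 change of 2.51 that missed the threshold (SE 0.74, adjusted p = 0.0578). HIST2H2BE, another gene known for polyadenylated mRNA, had 161 and 182 counts in shCON and 170 and 192 in shMAGED2, with overlapping groups and a log2 change of 0.02 (SE 0.25, adjusted p = 0.954). Its sign depends on the scaling, since with library size alone the change was −0.04.

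HIST3H2BB (ENSG00000196890, chr1:228458107-228460470, plus strand) was the H2B gene with the lowest change. It had 83 and 44 counts in shCON and 17 and 25 in shMAGED2, 2.38 and 1.5 CPM against 0.577 and 0.681 CPM. The groups did not overlap, and the log2 change of −1.62 (SE 0.46) missed the threshold at an adjusted p of 0.0533. The remaining 6 H2B genes had log2 changes from −0.61 to 0.77 and adjusted p from 0.396 to 0.886. They are HIST2H2BF (−0.61), HIST1H2BE (0.17), HIST1H2BD (0.58), HIST1H2BN (0.59), HIST1H2BC (0.67) and HIST1H2BG (0.77). HIST1H2BC and HIST1H2BN had 33 and 30 counts in shCON replicate 1 but 7 and 7 in shCON replicate 2. The summed H2B level was 21.14 and 20.82 CPM in shCON and 26.54 and 32.2 CPM in shMAGED2, 1.4 times higher by the means.

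Among the H3 genes, HIST1H3E (ENSG00000274750, chr6:26224199-26227473, plus strand) rose by counts. It had 8 and 4 counts in shCON and 25 and 52 in shMAGED2, a log2 change of 2.60 (SE 0.67, adjusted p = 0.0403). Its deposited FPKM did not follow: 0.456 and 0.217 in shCON and 0.286 and 0.571 in shMAGED2, overlapping, with a log2 change of 0.28 at a pseudocount of 0.1. The length that counts and FPKM together imply was 491 and 614 bases in shCON and 2686 and 2406 bases in shMAGED2, near the 462 and 2679 bases of its 2 GENCODE models. By these lengths the counts of HIST1H3E lay nearer the short model in shCON and the long one in shMAGED2. The shCON lengths rest on 8 and 4 counts, and at very few counts this measure can lie far from the model. A change of model was not tested. DESeq2 and limma-voom gave it adjusted p of 0.0504 and 0.0502, just past the threshold.

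HIST2H3PS2 had 94 and 65 counts in shCON and 119 and 131 in shMAGED2, without overlap (log2 change 0.63, SE 0.28, adjusted p = 0.162). It overlaps the gene AC239798.4, which shares 99.4% of its 75-base stretches, so these counts cannot be assigned to HIST2H3PS2 alone. HIST2H3A had 17 and 9 counts in shCON and 32 and 24 in shMAGED2, and its copy HIST2H3C had 15 and 10 against 32 and 24. Their log2 changes of 1.11 and 1.16 did not pass the test (adjusted p = 0.257 and 0.229), and they share all of their 75-base stretches. HIST2H3D had 8 and 9 counts in shCON and 2 and 18 in shMAGED2, so that the shMAGED2 libraries lay on either side of shCON (log2 change 0.10, SE 1.04, adjusted p = 0.955). Of its 75-base stretches, 70.3% also occur in other genes. The summed H3 level was 4.555 and 3.749 CPM in shCON and 9.13 and 7.949 CPM in shMAGED2, 2.06 times higher by the means.

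No H4 gene passed the test. HIST1H4I (ENSG00000276180, chr6:27138588-27139881, plus strand) came nearest, with 68 and 43 counts in shCON and 126 and 118 in shMAGED2, no overlap, and a log2 change of 1.13 (SE 0.33, adjusted p = 0.0562). HIST2H4A had 77 and 74 counts in shCON and 81 and 91 in shMAGED2, and HIST2H4B had 80 and 76 against 82 and 117. Their log2 changes were 0.14 and 0.29, and they turn negative in FPKM (−0.21 and −0.03 at a pseudocount of 0.1). These 2 genes are near-identical and lie opposite HIST2H3C and HIST2H3A on the other strand, so their counts and those of the H3 genes cannot be fully told apart without strand. HIST1H4H had 30 and 2 counts in shCON and 10 and 41 in shMAGED2, far apart within both groups (log2 change 0.63, SE 1.10), and HIST4H4 had 32 and 69 against 43 and 72 (log2 change 0.08, SE 0.53). The summed H4 level was 8.509 and 9.134 CPM in shCON and 11.98 and 13.31 CPM in shMAGED2, 1.43 times higher by the means.

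**Figure D2:**
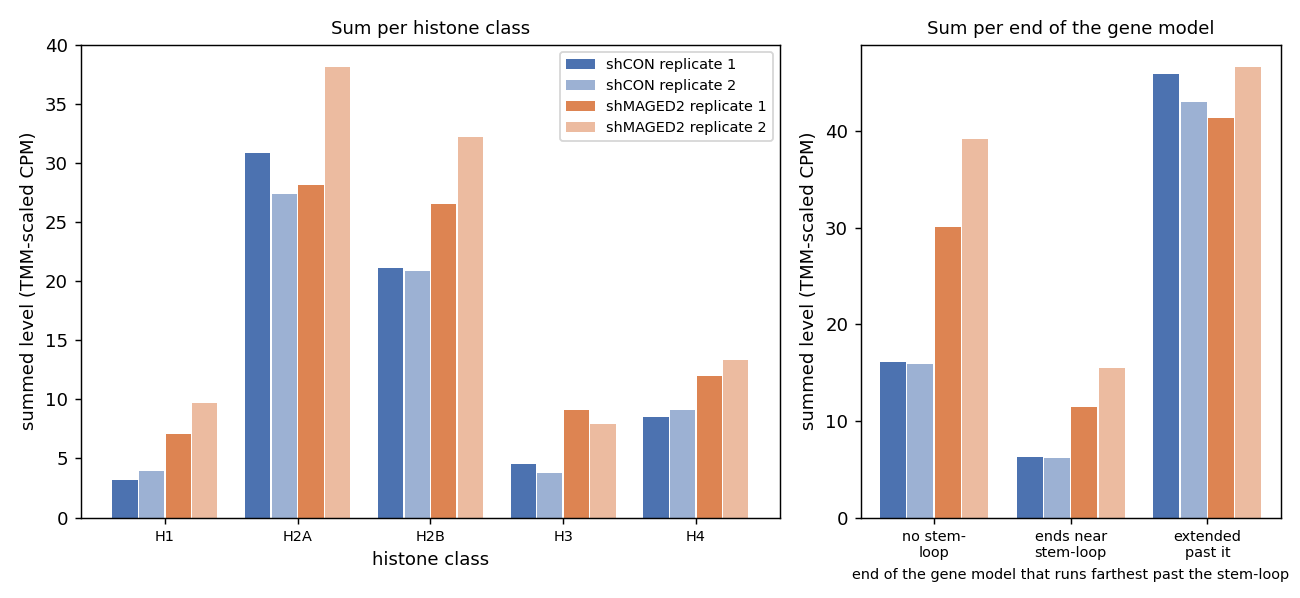
Summed level in TMM-scaled CPM per library, on the left for the 5 histone classes and on the right for the genes split by the end of the gene model that runs farthest past the stem-loop. Each bar is 1 library, and the axes start at 0. The shMAGED2 bars are above both shCON bars for H1, H2B, H3 and H4 but not for H2A, and on the right for all groups except the genes with extended models. The copies HIST2H2AA3 and HIST2H2AA4 hold most of the bars for models ending near the stem-loop. HIST1H2BK and HIST1H1C hold most of the bars for models with no stem-loop.

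By cluster, the HIST1 sum was 28.56 and 22.77 CPM in shCON and 43.55 and 53.41 CPM in shMAGED2, 1.89 times higher by the means. The HIST2 sum was 19.48 and 22.84 CPM in shCON and 29.29 and 32.29 CPM in shMAGED2, 1.46 times higher. It adds both genes of each near-identical HIST2 pair, so the same signal may enter more than once. How reads that match both copies were counted is not given. The same limit holds for the sums of H2A, H3, H4 and all clustered genes. The HIST3 sum went the other way, with 19.31 and 17.11 CPM in shCON and 8.621 and 13.64 CPM in shMAGED2, 0.611 times the shCON mean. HIST3 held 27.3% of the summed level in shCON and 12.1% in shMAGED2, while the share of HIST1 went from 38.5% to 52.7%. Without the 3 HIST3 genes the summed level was 48.96 and 47.96 CPM in shCON and 74.3 and 87.66 CPM in shMAGED2, 1.67 times higher by the means. HIST3 lies apart from HIST1 and HIST2, and its remaining gene, HIST3H3, known as a testis histone, had 4 and 1 counts in shCON and 5 and 8 in shMAGED2.

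Many clustered histone genes are arranged as divergent pairs whose starts face away from a shared stretch of promoter. In GENCODE 29 there were 12 such pairs within 1000 bases, with starts 219 to 357 bases apart. HIST1H2BO is in 2 of them, with HIST1H2AM and with HIST1H3J, whose models overlap each other. Pairs whose own models overlap, such as HIST1H2AK and HIST1H2BN, were not counted. Both genes were tested in 5 of them, and their values are set side by side without a test of the difference. HIST2H2BE and HIST2H2AC, 323 bases apart, had log2 changes of 0.02 and 2.55. HIST1H2BJ and HIST1H2AG, 292 bases apart, had log2 changes of 2.51 and −0.26. HIST3H2A and HIST3H2BB, 234 bases apart, were lower together, with log2 changes of −0.65 and −1.62. HIST1H2BC and HIST1H2AC had 0.67 and 0.39, and HIST1H2BG and HIST1H2AE had 0.77 and 1.57. HIST1H2AH, the partner of HIST1H2BK, had 0 and 2 counts in shCON and 0 and 5 in shMAGED2, too few to be tested.

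The promoter sequences of 4 genes are printed to show the motifs beside the changes given above: 3 of genes that rose, and that of HIST3H2BB, the gene with the lowest change. They are the 250 bases before the start site in RefSeq on GRCh38.p14, 5′ to 3′ on the strand of the gene. Capitals mark the TATA motif TATAAA, the CCAAT box CCAAT, bound by NF-Y, and the octamer ATTTGCAT, bound by POU2F1 (Oct-1), each searched on both strands.
HIST1H1C, chr6:26056471-26056720, minus strand: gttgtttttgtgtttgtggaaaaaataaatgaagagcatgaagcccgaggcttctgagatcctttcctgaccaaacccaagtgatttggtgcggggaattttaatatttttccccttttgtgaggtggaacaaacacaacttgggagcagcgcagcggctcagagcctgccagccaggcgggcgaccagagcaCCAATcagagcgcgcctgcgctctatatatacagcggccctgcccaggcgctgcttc
HIST1H2BK, chr6:27146859-27147108, minus strand: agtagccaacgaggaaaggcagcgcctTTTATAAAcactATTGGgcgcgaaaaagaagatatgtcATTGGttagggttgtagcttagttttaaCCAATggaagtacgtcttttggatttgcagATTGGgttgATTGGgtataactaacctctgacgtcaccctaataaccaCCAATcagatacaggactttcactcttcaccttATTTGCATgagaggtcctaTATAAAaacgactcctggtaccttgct
HIST2H2AC, chr1:149886668-149886917, plus strand: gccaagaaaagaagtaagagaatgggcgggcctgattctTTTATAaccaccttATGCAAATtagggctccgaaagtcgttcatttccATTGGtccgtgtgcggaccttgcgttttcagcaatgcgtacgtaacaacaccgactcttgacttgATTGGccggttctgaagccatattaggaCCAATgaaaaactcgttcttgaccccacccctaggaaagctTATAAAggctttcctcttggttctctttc
HIST3H2BB, chr1:228457853-228458102, plus strand: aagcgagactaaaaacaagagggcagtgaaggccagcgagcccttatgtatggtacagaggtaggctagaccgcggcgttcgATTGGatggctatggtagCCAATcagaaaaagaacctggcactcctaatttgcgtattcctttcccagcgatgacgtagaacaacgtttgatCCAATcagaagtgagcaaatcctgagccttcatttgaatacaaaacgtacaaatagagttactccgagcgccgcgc
HIST1H2BK and HIST2H2AC hold all 3 motifs. The HIST2H2AC window also covers 235 bases of the promoter window of HIST2H2BE, whose change was 0.02. In HIST1H1C and HIST3H2BB only CCAAT was found, which says only that the other letters are not in these windows.

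Promoters of the same length were found for 61 of the 71 genes, of 66 matched to RefSeq. TATAAA occurred in 67.2% of the 61 and in 11% of 27239 other promoters, CCAAT in 83.6% against 32.9%, and the octamer in 34.4% against 1.57%. The 61 windows are not all separate. Where both windows of a divergent pair were found, they shared 214 to 247 bases, so most of that stretch is counted for both genes. Near-identical copies are also counted apart. The octamer contains no TATAAA or CCAAT. These matches are letters in a window and not measured binding.

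The end of each gene model was read from the GENCODE 29 transcripts, and it need not be the end of the mRNA. The stem-loop was searched as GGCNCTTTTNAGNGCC on the sense strand, a stem of 6 bases on each side of a loop of 4. It was found in 31 of the 71 genes and in 4 of 19903 other genes (0.0201%), 1 of which is H2AFX, the H2A gene outside the clusters that also ends in a stem-loop. Printed are the forms of 3 genes whose changes are given above, all in capitals because the whole stretch is the motif, and written as DNA.
HIST2H2AA3: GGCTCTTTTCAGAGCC
HIST1H2BC: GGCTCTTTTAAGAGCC
HIST1H4I: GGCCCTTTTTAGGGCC
Each gene was classed by its model that runs farthest past a stem-loop, which is the longest model except in HIST1H2BC, HIST1H2BD and HIST1H2BN, whose longest models hold none. That model ended within 100 bases of the stem-loop in 9 genes and went on for at least 100 bases past it in 22, and 40 genes had no model with a stem-loop. Many models of these 40 genes are short, such as 381 bases for HIST1H2BK and 390 bases for HIST2H2AC, and can end before a stem-loop. The class therefore describes the models and does not say that the mRNA lacks a stem-loop. A model that goes on past the stem-loop is a form that a polyadenylated mRNA could have, but the class does not mark the genes known to give such mRNA. Of those, HIST2H2BE has an extended model. HIST1H1C and HIST1H2BK have no stem-loop in the model, and the models of HIST2H2AA3 and HIST2H2AA4 end near it.

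Genes whose model ends near the stem-loop summed to 6.303 and 6.203 CPM in shCON and 11.47 and 15.49 CPM in shMAGED2, 2.16 times higher by the means. The copies HIST2H2AA3 and HIST2H2AA4 held most of this sum, with means of 2.56 and 2.56 CPM in shCON and 5.62 and 5.7 CPM in shMAGED2. Genes with no stem-loop in the model summed to 16.1 and 15.88 CPM in shCON and 30.11 and 39.2 CPM in shMAGED2, 2.17 times higher. HIST1H2BK and HIST1H1C held most of this sum, with means of 8.44 and 3.29 CPM in shCON and 16.7 and 7.54 CPM in shMAGED2. Both ratios thus rest mainly on few genes. Genes with extended models summed to 45.87 and 42.98 CPM in shCON and 41.34 and 46.61 CPM in shMAGED2, 0.99 times the shCON mean and overlapping. Of this last group 17 were tested and none rose, beside the 12.3% of all tested genes. HIST1H4I of this group was called higher in FPKM (limma-trend adjusted p = 0.0413), with no count filter (edgeR adjusted p = 0.0455) and without shMAGED2 replicate 2 (edgeR adjusted p = 0.00903). Of 4 tested genes ending near the stem-loop, 2 rose, the copies HIST2H2AA3 and HIST2H2AA4 that give a single signal, and 4 of 8 with no stem-loop in the model rose. HIST2H2AC and HIST1H3E, among these last 4, and HIST1H2BJ and HIST1H2AE, tested but not called, reached the count filter in the shMAGED2 libraries only. No gene with an extended model did, so these counts by group are a description only. Without HIST3, which supplies 2 genes with extended models, that group summed to 26.67 and 25.9 CPM in shCON and 32.89 and 33.18 CPM in shMAGED2, 1.26 times higher by the means. The difference between these groups was not tested, and longer models hold more counts per mRNA, so these sums weigh genes unequally.

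**Figure D3:**
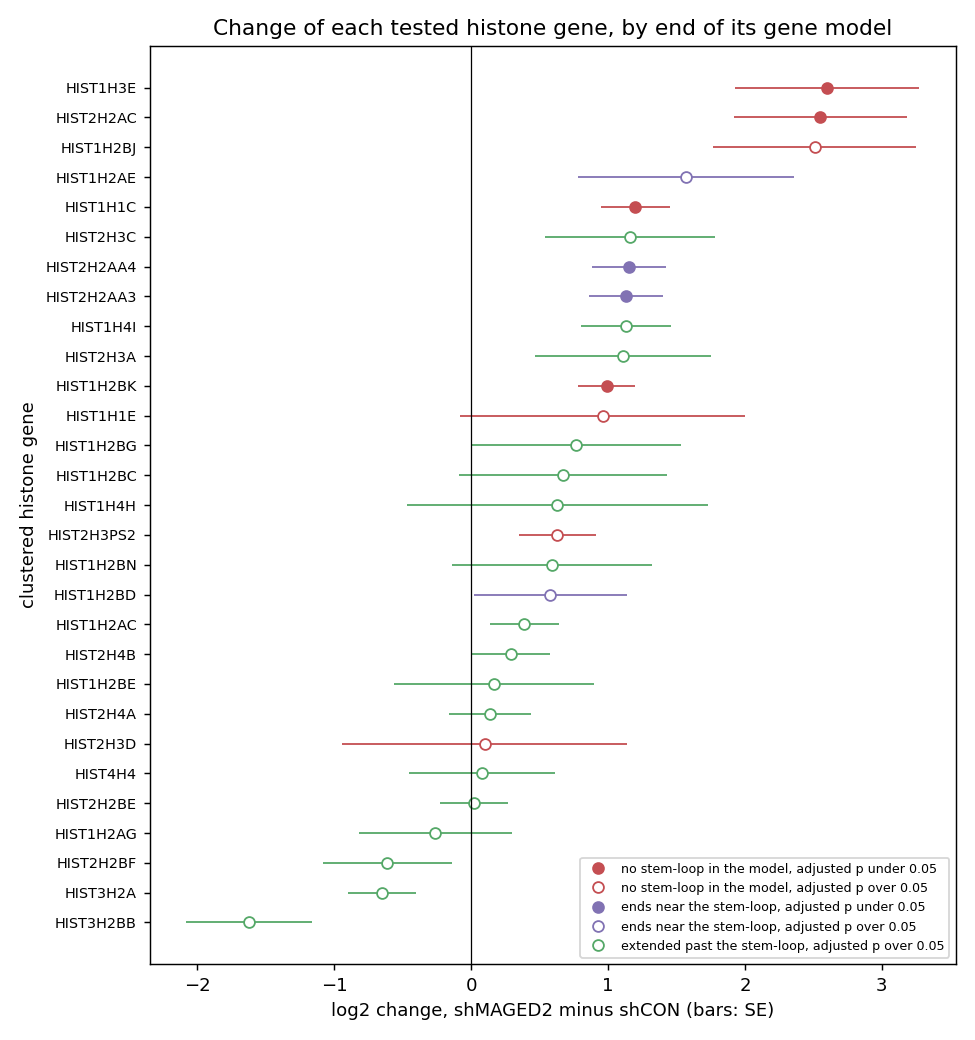
Log2 change of the 29 tested clustered histone genes, shMAGED2 minus shCON, with bars of 1 SE, coloured by the end of the gene model that runs farthest past the stem-loop. Filled points have an adjusted p under 0.05. All 6 filled points lie above 0 and none belongs to the genes with models extended past the stem-loop, 4 of which are the only points below 0. Of the filled points, HIST2H2AC and HIST1H3E passed the count filter through the shMAGED2 libraries only.

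The 42 genes under the filter summed to 78 and 51 counts in shCON and 116 and 203 in shMAGED2. That is 2.235 and 1.738 CPM in shCON and 3.937 and 5.526 CPM in shMAGED2, 2.38 times higher by the means. Of these 42, 8 had 0 counts in all libraries, 17 had 1 to 9 counts in all, and 17 had at least 10. Of the 34 with at least 1 count, 10 were higher in both shMAGED2 libraries than in both shCON libraries (29.4%, beside 11.2% of all genes under the filter with a count). Another 2 of the 34 were lower in both (5.88%, beside 12.5%). The low counts thus lay on the same side as the sum of the tested genes.

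The low-count genes with at least 10 counts are given by their counts in shCON replicates 1 and 2, then shMAGED2 replicates 1 and 2. HIST1H1B, the linker histone H1.5 of dividing cells, had 1, 4, 8 and 15. HIST1H3C had 0, 0, 13 and 4, and HIST1H3B had 0, 0, 2 and 8, both replication-dependent H3 genes. HIST1H3H had 0, 3, 13 and 6, HIST1H3G had 9, 4, 15 and 10, and HIST1H4E had 2, 2, 3 and 24. HIST1H2BO had 0, 1, 4 and 9, HIST1H2AM had 2, 1, 2 and 8, and HIST3H3 is given above. These 8 genes and HIST3H3 are higher in both shMAGED2 libraries after scaling, as is HIST1H2AJ with 5, 2, 6 and 18. HIST1H2AI, which shares sequence with HIST1H2AJ, had 7, 2, 4 and 12 and overlapped.

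The other low-count genes moved with single libraries or lay lower. HIST1H4J and HIST1H4K, which share sequence, had 3, 0, 0 and 12 and 3, 1, 0 and 11, so that their counts came mostly from shMAGED2 replicate 2. HIST1H2AL had 7, 1, 10 and 4, and HIST1H2BF had 0, 11, 4 and 5. HIST1H2BH had 22, 4, 4 and 9, most of them in shCON replicate 1. HIST2H2AB had 3, 4, 1 and 2, lower in both shMAGED2 libraries.

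**Figure D4:**
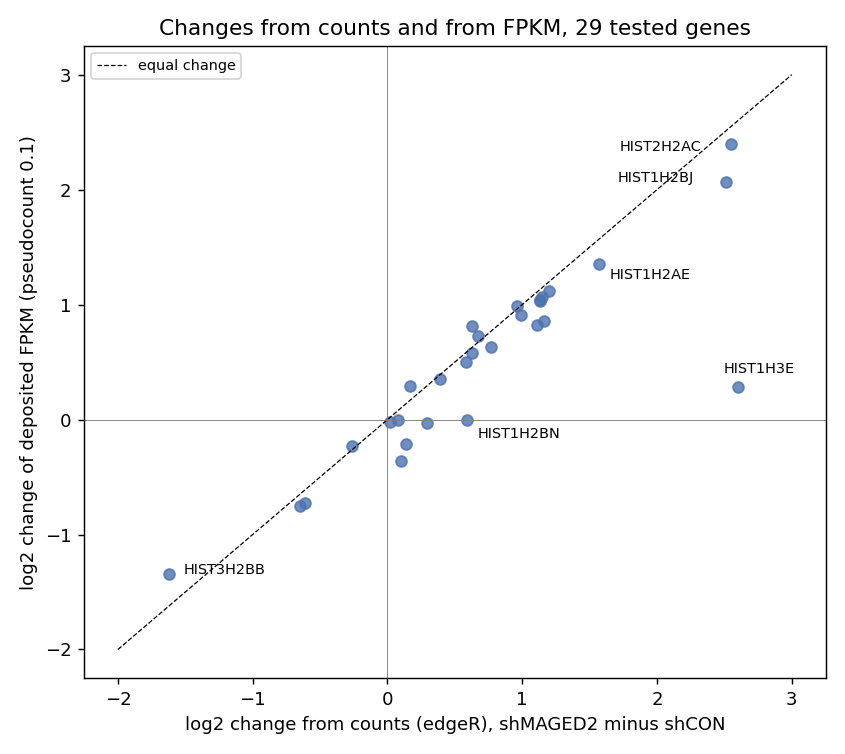
Log2 change of the 29 tested genes from counts (edgeR, horizontal) and from the deposited FPKM with a pseudocount of 0.1 (vertical), with the line of equal change. HIST1H3E lies farthest below the line, at 2.60 from counts and 0.28 from FPKM.

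On log2(FPKM + 0.1) with limma-trend, 14 clustered histone genes reached an FPKM of at least 1 in 2 libraries, 6 of which rose (9.85% of the 12554 genes tested there) and 0 fell (11.4%). They are HIST1H1C, HIST1H2BK, HIST2H2AA3, HIST2H2AA4, HIST2H2AC and HIST1H4I. HIST2H2AC reached that FPKM in the shMAGED2 libraries only, and HIST1H3E did not reach it. HIST1H2BN too differed, at 0.59 by counts and 0.00 by FPKM.

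Other fits and left-out libraries moved the count of calls. DESeq2 called 5 of 36 clustered histone genes higher and 0 lower, beside 12.7% and 11.9% of all genes it tested. Limma-voom called 5 of 29 higher and 0 lower, beside 12% and 11.9%. Without shCON replicate 1 none rose and none fell, beside 3.59% and 3.37% of all genes, and likewise without shCON replicate 2, beside 4.12% and 3.85%. Without shMAGED2 replicate 1, 6 rose and 1 fell (HIST3H2BB), beside 21.1% and 20%. Without shMAGED2 replicate 2, 6 rose and 2 fell (HIST3H2A and HIST3H2BB), beside 23.5% for each direction, with HIST1H2BJ and HIST1H4I in place of HIST1H3E and HIST2H2AC. In these fits the group with 1 library takes its spread from the other. With mitochondrially encoded genes removed, the same 6 genes rose as with them, beside 12.6% of all genes tested there.

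The genes that make and process histone mRNA were taken as a list of 23 symbols, of which 22 were tested. Of these 11 rose and 1 fell, with a median log2 change of 0.44. The shares over all tested genes, 12.3% that rose and 11.6% that fell, apply to this list and to the next 3. SLBP, the stem-loop binding protein, rose from 71.6 and 74.7 CPM to 120 and 117 CPM (log2 change 0.69, SE 0.09, adjusted p = 0.00577). CASP8AP2 (FLASH), which works in histone transcription and 3′ end cutting, rose by 0.55 (SE 0.13, adjusted p = 0.0292). NPAT, the co-activator of the clusters, went from 25 and 21.4 CPM to 28.7 and 23.4 CPM (log2 change 0.17, SE 0.16, adjusted p = 0.498). The U7 ring proteins LSM10 and LSM11 had log2 changes of 0.54 and 0.42 and did not pass the test (adjusted p = 0.0592 and 0.305). Cyclin A2 (CCNA2, 1.71), CDK2 (1.37) and cyclin E1 (CCNE1, 1.05), which act in S phase entry and on NPAT, rose as well. The 11 that rose are therefore not all dedicated to histone mRNA. The list also shares a gene that rose with the histone chaperones below. The gene that fell, HINFP, the activator of H4 promoters, changed by −0.88 (SE 0.21, adjusted p = 0.0309) and is named after its value was seen.

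Histone chaperones, which carry new histones to DNA, were a list of 24, all tested, of which 13 rose and 0 fell, with a median log2 change of 0.57. The 4 with the smallest p were ASF1B (1.94), HJURP (1.80), CHAF1A (1.66) and TONSL (1.68). All 24 genes of the S-phase list rose, with a median log2 change of 1.40, among them RRM2 (1.99), TYMS (2.01), MCM4 (1.46) and E2F2 (2.27). Beside these medians the clustered histone genes had 0.63. Their summed level was 1.38 times higher, while that of the S-phase list went from 1190 to 1240 CPM in shCON to 3210 to 3320 CPM in shMAGED2. That difference between the lists was not tested.

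Of the histone genes outside the clusters, 10 of 20 in the table were tested, 5 rose and 2 fell, with a median log2 change of 0.41. H2AFX, which gives the DNA damage histone H2A.X, rose from 20.5 and 19.5 CPM to 63.9 and 50.5 CPM (log2 change 1.51, SE 0.15, adjusted p = 0.00227). H2AFV (0.60) and H2AFY (0.47), variants of H2A, rose too. The other genes called were CENPA (1.23), the centromeric H3, and H3F3A (0.36), which makes H3.3, both higher, and H2AFJ (−0.74), which was lower. These 3 are named after their values were seen. Per length, histone genes outside the clusters summed to 622.6 and 629.1 FPKM in shCON and 627.9 and 971 FPKM in shMAGED2, several times the sum of the clustered genes in every library. As for H1, an effect of poly(A) selection on this ratio was not tested. Among the 10 clustered genes known to give polyadenylated mRNA, 4 rose (HIST1H1C, HIST1H2BK, HIST2H2AA3 and HIST2H2AA4) and 0 fell, beside 12.3% and 11.6% of all tested genes, with a median log2 change of 0.83. The last 2 of the 4 are the near-identical copies and count as a single signal.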

How the data were processed

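RNA of 2 shCON and 2 shMAGED2 libraries was measured, grouped by the sample titles. The authors deposited raw counts per gene as whole numbers, and the deposited FPKM table holds FPKM, made on hg38 with HISAT2, StringTie and SAMtools per the submitters' processing notes. The sources used here give neither the annotation nor the strand setting, nor how reads with several matches were counted. Counts were fitted on the whole table with edgeR 4.0.16 in R 4.3.3 (TMM, filterByExpr, robust quasi-likelihood, group only, two-sided), with Benjamini-Hochberg adjustment over 15293 genes and a threshold of 0.05. Residual degrees of freedom were 2 and the biological coefficient of variation 0.167. SE was taken from the F statistic. Limma 3.58.1 and DESeq2 1.42.0 gave alternatives, and the fit was tested on simulated data. The members and lists were chosen with earlier results of these data known. The naming rule takes all tested members, untested ones with at least 10 counts, up to 4 called genes per list, and 5 histone mRNA factors; HINFP, CENPA, H3F3A, H2AFJ and, as partner of HIST1H2BK, HIST1H2AH were named outside it, after their values were seen. Models are from GENCODE 29, promoters from RefSeq.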

Additional observations from a re-analysis of the deposited data

How the results depend on the processing

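Depth limits the genes under the filter, and 2 residual degrees of freedom limit every p-value. Leaving out 1 library moved the clustered genes that rose between 0 and 6 and those that fell between 0 and 2. For the processing list it moved the genes that rose between 2 and 16 and fell between 0 and 2, for the chaperones between 8 and 14 and between 0 and 3, and for histone genes outside the clusters between 1 and 7 and between 1 and 4. Over all tested genes, the shares called in these fits, given above, moved as well. Without a shCON library they were lower than in the main fit, and without a shMAGED2 library they were higher. The ranges of the clustered genes and of these lists therefore cannot be read apart from the calls over all genes. With no count filter 7 of 63 clustered genes rose, beside 10.8% of all genes tested there. With at least 1 CPM in 2 libraries 4 of 14 rose, beside 14%, without HIST1H3E and HIST2H2AC, which were not tested there. Under both, 1 fell (HIST3H2BB), beside 10.2% and 13.8%. With library size alone 1 chaperone fell, beside 12.1% of all genes. With FPKM at either pseudocount 0 processing genes fell, and 2 genes outside the clusters rose and 1 fell. Over all genes 9.85% to 10.1% rose and 11.4% to 11.8% fell in FPKM. With the replicate block 4 clustered genes rose (1706 genes in all), with HIST1H3E at an adjusted p of 0.0698 and HIST2H2AC at 0.0543 in edgeR. The replicate numbers share no stated culture or day, so the main fit did not pair them. Deviations of same-numbered libraries correlated at −0.0301 over 15293 genes, but with 2 libraries per group this single value cannot exclude a pairing.

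The log2 ratio of the summed level was 0.47. It was 0.62 in FPKM, 0.70 without HIST3H2A, 0.74 without HIST3, and 0.31 to 0.60 with 1 library left out, lowest without shMAGED2 replicate 2. For H2A it was 0.82 without HIST3. In FPKM it was 0.79 for H2B, 0.75 for H3 and 0.42 for H4, and with 1 library left out it was 0.34 to 0.62 for H2B. Of the values of single clustered genes under alternatives, 337 kept their direction and side of the threshold, 20 changed sign, 18 lost the threshold and 10 passed it. HIST2H2BE was at −0.04 with library size alone and −0.02 in FPKM at both pseudocounts. HIST2H3D was at −0.33 with limma-voom and −0.27 with the block. HIST2H4A (−0.15 and −0.21), HIST2H4B (−0.03 and −0.03) and HIST4H4 (−0.01 and 0.00) changed sign in FPKM. With 1 library left out, values ran from −0.18 to 0.25 for HIST2H2BE, −0.11 to 0.87 for HIST2H3D, −0.46 to 0.90 for HIST4H4, −0.47 to 3.35 for HIST1H4H, −0.04 to 1.79 for HIST1H2BN and −0.05 to 0.38 for HIST1H2BE. The cause of these changes was not tested.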
